A study of Mus musculus with 7 samples.

Results

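The genes described here are the vascular endothelial growth factor (VEGF) ligands Vegfa, Vegfb, Vegfc and Pgf, the angiopoietin and angiopoietin-like genes Angpt1, Angpt2, Angptl2 and Angptl4, and the VEGF receptor genes Flt1 and Kdr. They were chosen by name. Rows for 9 of the 10 were found among the 12771 genes of the count table, and Angpt2 was not analysed here. The material was cancer-associated fibroblasts (CAFs), sorted out of pancreatic tumors that had been started orthotopically in C57BL/6 J mice, males of 8 weeks per the study's methods. Each tumor grew for 2 to 3 weeks from injected cells of the mouse pancreatic cancer line KPC. In 3 mice the KPC cells carried a non-targeting hairpin (shControl, replicates 1, 2 and 4), and in 4 mice they carried a lentiviral hairpin against Brca2 (shBrca2, replicates 1 to 4). The hairpin sat in the cancer cells and not in the fibroblasts, which came from the host mouse in both groups, and all tumors came from 1 KPC line. About 10000 live cells per mouse were collected that lacked CD45, CD31 and EpCAM and carried podoplanin, and their poly(A) RNA was read at the 3' end.

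VEGF-A is the main growth factor for blood vessels and is induced in cells that lack oxygen. It signals in endothelial cells mostly through VEGFR2, the product of Kdr, while VEGFR1, the product of Flt1, binds VEGF-A, VEGF-B and placental growth factor tightly and is also made as a soluble decoy. VEGF-C and VEGF-D act on VEGFR3 and drive growth of lymphatic vessels, and the angiopoietins act on the receptor Tie2, which Tek encodes. Fibroblasts of the tumor stroma are one source of these factors.

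Total counts per library ran from 1898679 to 5990579, with overlapping ranges between the groups. Values below are counts divided by DESeq2 size factors (normalized counts). The fibroblast label was checked against 12 marker genes, all of them present. Dpt, Lum and Dcn, which encode matrix proteins, fell in shBrca2, by 1.73, 1.18 and 0.77 on the log2 scale (adjusted p by DESeq2 = 3.74e-05, 0.0149 and 0.0688), and the other 9 did not pass. Over all genes tested, 5.27% passed downward. The summed list was 149844 to 166341 in shControl and 116350 to 140629 in shBrca2. Col3a1, which did not pass and overlapped between the groups, had the largest change of mean in this sum. Its means were 54982 in shControl and 40400 in shBrca2 (adjusted p by DESeq2 = 0.137). Pdpn, which encodes podoplanin, was 600 to 670 in shControl and 457 to 590 in shBrca2 and did not pass (log2 fold change -0.25, adjusted p by DESeq2 = 0.421). Pdgfra, which marks fibroblasts, lay at 623.3 ± 69.8 (SD, n = 3) for shControl CAFs and at 630.1 ± 28.2 (SD, n = 4) for shBrca2 CAFs. Lower counts of a transcript in a sorted population can mean fewer cells that make it or less RNA per cell, and these cannot be told apart in bulk libraries.

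To ask whether CAFs differ in their vascular growth factors when Brca2 is silenced in the cancer cells, normalized counts were compared between the groups by the DESeq2 likelihood ratio test. A gene passed when its adjusted p over all genes was under 0.1, its log2 fold change exceeded 0.5 in size and its mean normalized count exceeded 5. Vegfa, Pgf and Flt1 rose in shBrca2 CAFs and Angptl2 fell, while Vegfb, Vegfc, Angpt1, Angptl4 and Kdr did not pass. Of the 9 members, 4 thus passed, 3 upward and 1 downward. Over all 12768 genes tested, 9.04% passed, 3.77% upward and 5.27% downward. The median log2 fold change of the 9 members was 0.54, and that of all genes tested was 0.01. In the 4 members that passed, no shBrca2 library fell within the shControl range, as was the case for 17.1% of all genes tested (7.79% higher and 9.3% lower in shBrca2), and the other 5 members overlapped.

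**Figure D1:**
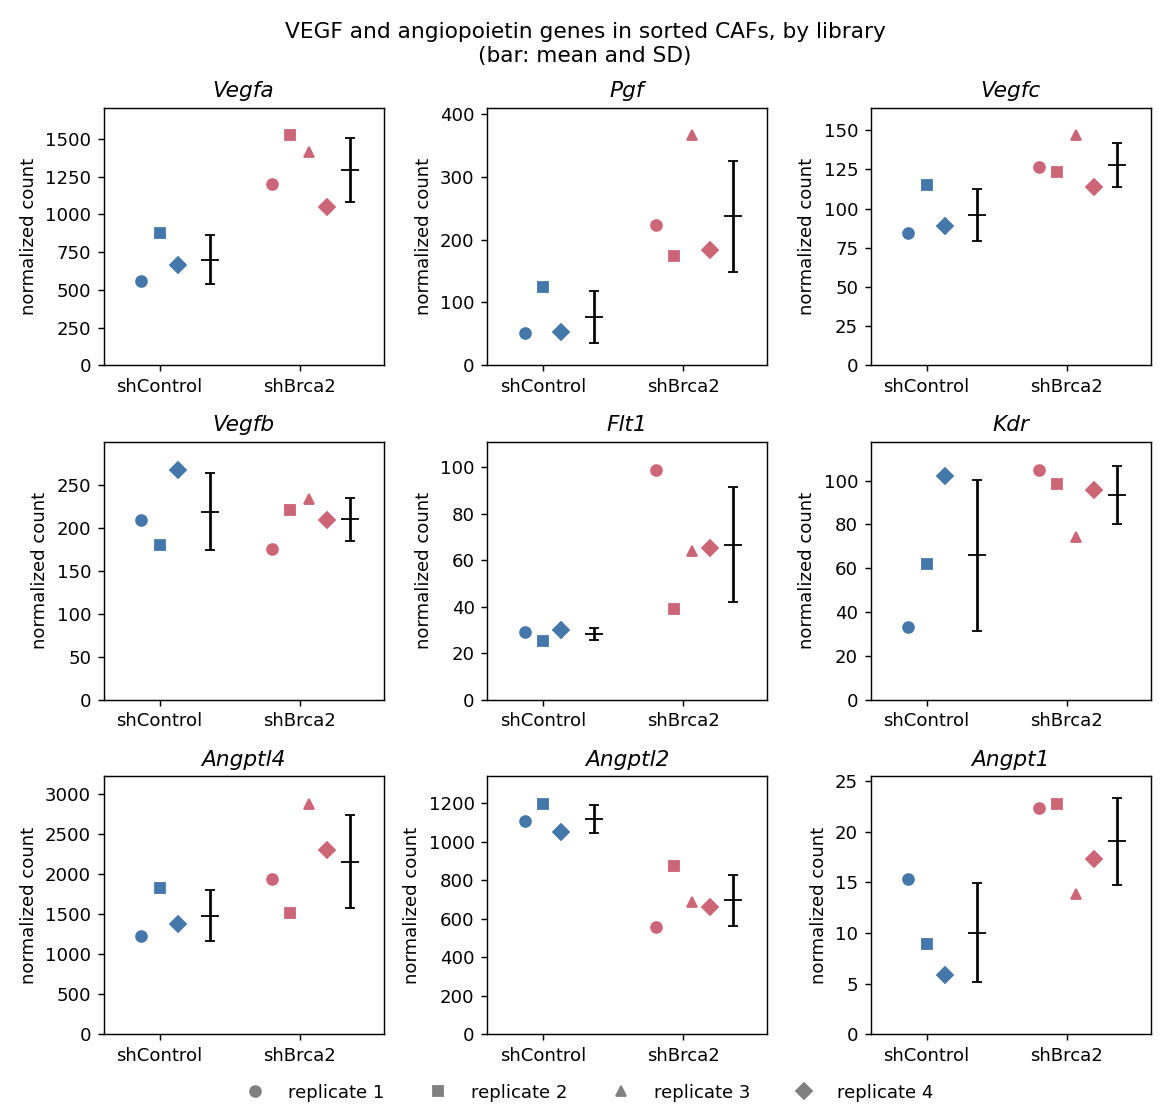
Normalized counts (y axis, linear from 0) of the 9 members in each of 3 shControl (blue) and 4 shBrca2 (red) libraries, with the marker shape giving the replicate number and the black bar the group mean and SD. The groups are apart for Vegfa, Pgf, Flt1 and Angptl2 and overlap for the other 5.

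Among the ligands, Vegfa (chromosome 17, 46016993 to 46032377; this and the following positions are on GRCm38.p6) had 555, 878 and 666 normalized counts for shControl replicates 1, 2 and 4. The shBrca2 replicates 1 to 4 had 1199, 1525, 1411 and 1047. All 4 shBrca2 libraries thus lay above all 3 controls, with shControl replicate 2 the highest of the controls. Vegfa rose by a log2 fold change of 0.89 (SE 0.21), a 1.85-fold difference (adjusted p by DESeq2 = 0.00127).

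Pgf (chromosome 12, 85166637 to 85177785), which encodes placental growth factor, a ligand of VEGFR1 but not of VEGFR2, showed the largest fold change of the 9 members. It had 51.3, 125 and 53.5 normalized counts among controls and 224, 173, 366 and 184 across shBrca2 replicates 1 to 4. Replicate 2 was again the highest control, and shBrca2 replicate 3 stood above the other shBrca2 libraries. The log2 fold change was 1.63 (SE 0.35), a 3.10-fold difference (adjusted p by DESeq2 = 0.000553). Without shControl replicate 2 the log2 fold change was 2.16.

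Vegfc (chromosome 8, 54077532 to 54186454) encodes a lymphatic growth factor. It had 84.6, 115 and 88.5 normalized counts in shControl and 127, 124, 147 and 114 across shBrca2 replicates 1 to 4, so that the lowest shBrca2 library fell just under the highest control. Its log2 fold change was 0.41, with a 95% interval from -0.00 to 0.82, and it did not pass (adjusted p by DESeq2 = 0.289). Vegfb (chromosome 19, 6982472 to 6987651), another ligand of VEGFR1, had 218.5 ± 44.8 normalized counts (SD, n = 3) for shControl CAFs and 209.7 ± 24.8 (SD, n = 4) for shBrca2 CAFs. The difference was smaller than the spread between replicates, as the log2 fold change of -0.07 had a 95% interval from -0.46 to 0.33 (adjusted p by DESeq2 = 0.925). Its sign was not stable, at 0.10 without shControl replicate 4 and 0.01 without shBrca2 replicate 1 (adjusted p from 0.765 to 0.986 over its alternatives).

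Both receptor genes were read at low counts, between 20 and 115 raw counts per library for Flt1 and between 39 and 169 for Kdr. Flt1 (chromosome 5, 147561604 to 147726438) had 29.0, 25.3 and 30.2 normalized counts in the controls, which lay close together. In shBrca2 replicates 1 to 4 it had 99.0, 39.1, 63.9 and 65.0, all above the controls but spread widely. The log2 fold change was 1.23 (SE 0.35), a 2.35-fold difference (adjusted p by DESeq2 = 0.0124). The call depended on the highest library: without shBrca2 replicate 1 the log2 fold change was 0.96 and Flt1 did not pass (adjusted p by DESeq2 = 0.149, and 0.00117 to 0.149 across the alternatives). Counts were given per gene, so transcripts for the membrane receptor and the soluble decoy could not be separated.

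Kdr (chromosome 5, 75932827 to 75979072) varied among the controls, with 33.3, 62.0 and 102 normalized counts for shControl replicates 1, 2 and 4 against 105, 98.5, 74.3 and 95.5 across shBrca2 replicates 1 to 4. It did not pass (log2 fold change 0.51, 95% interval from -0.14 to 1.17, adjusted p by DESeq2 = 0.462). Control replicate 4 lay within the shBrca2 range, and without it the log2 fold change was 1.01 and Kdr passed (adjusted p by DESeq2 = 0.0532, and 0.0532 to 0.888 across the alternatives). Within a library, Flt1 had between 0.295 and 0.872 counts per Kdr count in shControl and between 0.396 and 0.943 in shBrca2, so the ratio of both receptors overlapped between the groups.

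Transcripts of endothelial cells were examined beside the receptors, since Flt1 and Kdr are best known from these cells and the sort removed them by CD31. Of 16 endothelial markers 9 were in the table, and Cdh5, Cldn5 and Emcn were not analysed here. Pecam1, which encodes CD31, had 6, 14 and 2 raw counts in the controls and 2, 1, 0 and 0 across shBrca2 replicates 1 to 4. The summed normalized counts of the 9 markers were 1389 to 2143 in shControl and 889 to 1047 in shBrca2. Eng, an endothelial gene that fibroblasts also express, carried most of this sum and fell by 1.46 on the log2 scale (adjusted p by DESeq2 = 2.22e-08). Without Eng, a choice made after the data were seen, the sums of the other 8 overlapped, at 409 to 530 in shControl and 445 to 515 in shBrca2. Ecscr carried most of these sums, at a mean of 309 in shControl and 303 in shBrca2, so they say little about the rest. None of these 8 passed; Pecam1 had an adjusted p by DESeq2 of 0.0311 but a mean under 5 normalized counts, and it was the only one with an unadjusted p under 0.05. Esam, Egfl7, Erg and Sox18 had log2 fold changes of 0.81, 0.77, 0.84 and 0.79 (adjusted p by DESeq2 = 0.322, 0.53, 0.429 and 0.581). The other 4 had values below 0, at -3.60 for Pecam1, -0.59 for Plvap, -1.11 for Vwf and -0.02 for Ecscr. The median of the 9 was -0.02, and the part of endothelial cells in the Flt1 result was not tested. Of the lymphatic list only Lyve1 was in the table, with 2 to 12 raw counts per library.

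For the members that moved, the promoter sequence is shown, so that the letters shared by the genes of 1 direction can be seen. The 250 bases before a start site are from RefSeq (GRCm38.p6), 5' to 3' on the strand of the gene. Where the promoter table held several start sites the one furthest upstream among them was taken, which for Pgf, Flt1 and Angptl2 is not the outer end of the gene span. Capitals mark matches on either strand to the GC box GGGCGG and, in Flt1, also to the cAMP response element TGACGTCA and the TATA box TATAAA; none of these matches overlap.
Vegfa, chr17:46032378-46032627, minus strand: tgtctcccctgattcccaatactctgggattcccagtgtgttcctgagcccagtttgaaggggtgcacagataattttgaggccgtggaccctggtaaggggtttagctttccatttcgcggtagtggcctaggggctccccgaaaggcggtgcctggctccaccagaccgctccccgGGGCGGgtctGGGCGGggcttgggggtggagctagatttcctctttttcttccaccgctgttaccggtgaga
Pgf, chr12:85177314-85177563, minus strand: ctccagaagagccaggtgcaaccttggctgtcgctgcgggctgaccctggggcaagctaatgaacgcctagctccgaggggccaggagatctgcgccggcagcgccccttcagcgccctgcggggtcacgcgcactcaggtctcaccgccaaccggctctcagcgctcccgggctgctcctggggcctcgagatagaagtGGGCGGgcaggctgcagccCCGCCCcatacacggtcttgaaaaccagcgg
Flt1, chr5:147726012-147726261, minus strand: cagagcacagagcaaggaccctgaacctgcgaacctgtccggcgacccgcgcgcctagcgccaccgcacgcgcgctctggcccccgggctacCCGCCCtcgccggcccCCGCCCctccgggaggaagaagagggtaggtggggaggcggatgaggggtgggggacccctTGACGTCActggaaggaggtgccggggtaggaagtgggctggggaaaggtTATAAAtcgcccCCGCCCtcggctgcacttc
Angptl2, chr2:33215711-33215960, plus strand: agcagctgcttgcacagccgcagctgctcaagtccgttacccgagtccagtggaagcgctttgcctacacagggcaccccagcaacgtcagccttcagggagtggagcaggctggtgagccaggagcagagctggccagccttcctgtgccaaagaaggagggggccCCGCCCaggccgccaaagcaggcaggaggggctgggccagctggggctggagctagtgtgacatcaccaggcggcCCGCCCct

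A GC box, the letters that Sp1 binds, stood in all 4 windows: 2 in Vegfa, 2 in Pgf, 3 in Flt1 and 2 in Angptl2. Of 32851 promoter windows in the RefSeq table, 32.7% held at least 1. The gene that fell and the genes that rose thus shared it. TGACGTCA and TATAAA were found in Flt1 alone of the 4, at bases -81 to -74 and -31 to -26 from the start, against 1.55% and 12.4% of all windows. The core of the hypoxia response element, ACGTG, and the heat shock element were not among the letters of these 4 windows, and 16.6% and 0.466% of all windows held them. For Pgf and Flt1 the RefSeq gene span reaches 472 and 427 bases upstream of the start site used, so that both windows lie inside the annotated gene, and the outer 222 and 177 bases were not searched. For Angptl2 the span reaches 10 bases into the window.

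The angiopoietin-like genes encode secreted proteins that resemble angiopoietins but do not bind Tie2. Angptl2 (chromosome 2, 33215951 to 33247725), a glycoprotein linked to inflammation and vessel growth, had 1105, 1195 and 1051 normalized counts among controls and 558, 875, 686 and 661 across shBrca2 replicates 1 to 4. Every shBrca2 library lay below every control, and replicate 2 came closest to them. Angptl2 fell by 0.68 on the log2 scale (SE 0.18), and was 1.61-fold higher in shControl (adjusted p by DESeq2 = 0.0052). Its span lies across that of Ralgps1 in the annotation. Strand handling was not given in the sources used here, so reads of these genes may not be separable where their exons meet. The spans of Vegfc, Flt1, Kdr and Angpt1 likewise overlap predicted genes, Gm33153, Gm35383, Gm32727 and Gm41313 in that order.

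Angptl4 (chromosome 17, 33774900 to 33781575) encodes an inhibitor of lipoprotein lipase that is induced by fasting and by low oxygen. It was abundant in both groups, at 1218, 1829 and 1378 normalized counts for shControl replicates 1, 2 and 4 and at 1935, 1509, 2870 and 2294 across shBrca2 replicates 1 to 4. The groups overlapped, since shBrca2 replicate 2 lay under the highest control, replicate 2. It did not pass (log2 fold change 0.54, 95% interval from 0.08 to 1.01, adjusted p by DESeq2 = 0.179). It passed without shControl replicate 2 (log2 fold change 0.73, adjusted p by DESeq2 = 0.0476) and without shBrca2 replicate 2 (0.68, adjusted p = 0.0308), and its adjusted p ran from 0.0308 to 0.715 across the alternatives.

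The ratio of Angptl4 to Angptl2 was then taken within each library, which needs no size factor, with 1 added to each raw count. It was 1.10, 1.53 and 1.31 in the controls and 3.47, 1.72, 4.18 and 3.47 across shBrca2 replicates 1 to 4, and the groups did not overlap. The mean log2 ratio was 0.38 ± 0.24 (SD, n = 3) for shControl CAFs and 1.61 ± 0.56 (SD, n = 4) for shBrca2 CAFs, 1.23 higher in shBrca2 (exact permutation test over libraries, two-sided p = 0.0571, with 0.0571 to 0.25 over its alternatives). The two-sided p was taken by doubling the smaller one-sided p. With 35 divisions of 7 libraries, 0.0571 is then the smallest value possible, so this test cannot reach 0.05. Each alternative likewise gave the smallest p that its own divisions allow, and the higher values come from fewer divisions. Angptl2 alone had already differed, and the ratio is not independent of it.

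Angpt1 (chromosome 15, 42424667 to 42676977), the agonist of Tie2, was read at only 6 to 39 raw counts per library. It had 15.4, 8.86 and 5.84 normalized counts in shControl and 22.4, 22.7, 13.8 and 17.3 across shBrca2 replicates 1 to 4, and the lowest shBrca2 library lay within the controls. It did not pass (log2 fold change 0.94, 95% interval from 0.00 to 1.87, adjusted p by DESeq2 = 0.275). Without shControl replicate 1 the log2 fold change was 1.42, and without shControl replicate 4 it was 0.65, with adjusted p from 0.187 to 0.744 across the alternatives.

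**Figure D2:**
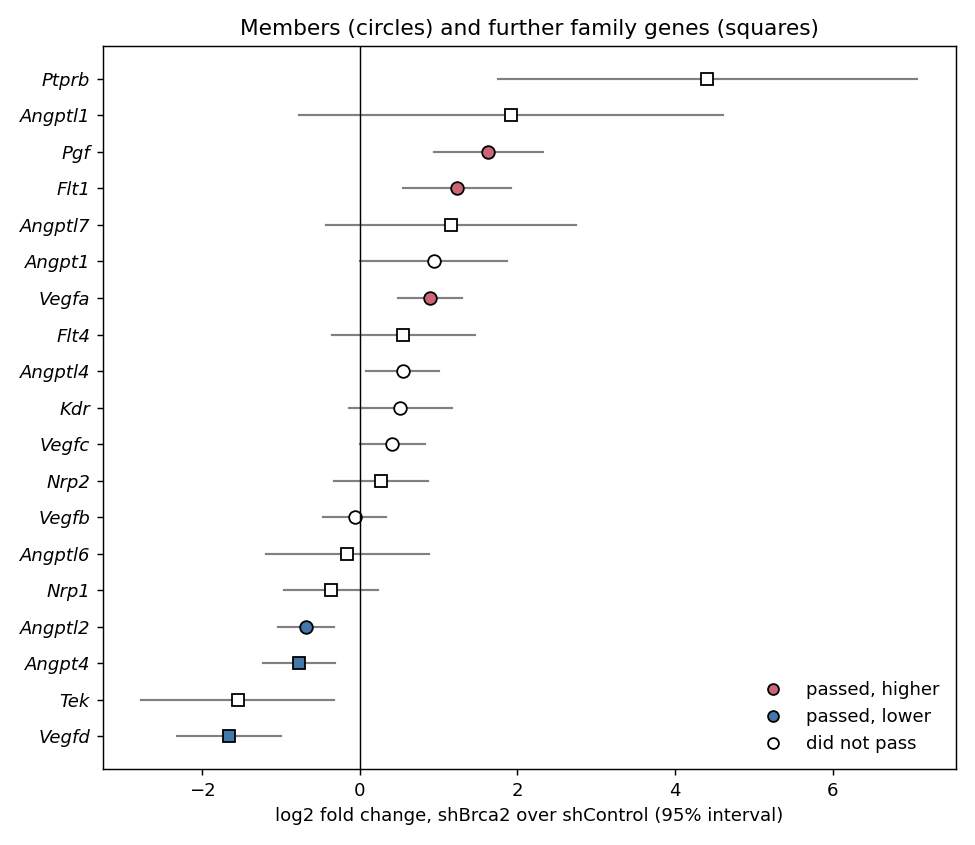
Log2 fold change of shBrca2 over shControl (x axis) with its 95% interval for the 9 members (circles) and for 10 further receptors, co-receptors and ligands of the same families (squares); filled symbols passed the test, red higher and blue lower. Vegfd has the lowest value at -1.66, and Ptprb, at the top, had 0 or 1 raw counts in each control and a mean normalized count under 5, so it could not pass.

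Beside the members, a list of further ligands, receptors and co-receptors was examined, of which 10 genes were in the table. Downward 2 passed and upward 0, against 5.27% and 3.77% of all genes tested. At an unadjusted p under 0.05 there were 4, and edgeR called 3 lower and 0 higher. The median log2 fold change of the list was 0.06. Vegfd, a lymphatic growth factor like Vegfc, had 3367, 2118 and 3870 normalized counts among controls and 672, 1692, 986 and 600 across shBrca2 replicates 1 to 4. All shBrca2 libraries were below all controls, with replicate 2 of each group nearest to the other group. Vegfd fell by 1.66 on the log2 scale (SE 0.34), and was 3.16-fold higher in shControl (adjusted p by DESeq2 = 6.86e-05).

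Vegfa and Vegfd, which act on different receptors, moved in opposite directions. A library held 0.165, 0.415 and 0.172 Vegfa counts per Vegfd count for shControl replicates 1, 2 and 4, and 1.78, 0.902, 1.43 and 1.75 across shBrca2 replicates 1 to 4. The lowest shBrca2 ratio was above the highest control ratio. These ratios were chosen after the values were seen and were not tested, and they compare counts of 3' ends, not amounts of protein. Vegfc per Vegfd likewise did not overlap, at 0.0229 to 0.0544 in shControl and 0.0731 to 0.190 in shBrca2.

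**Figure D3:**
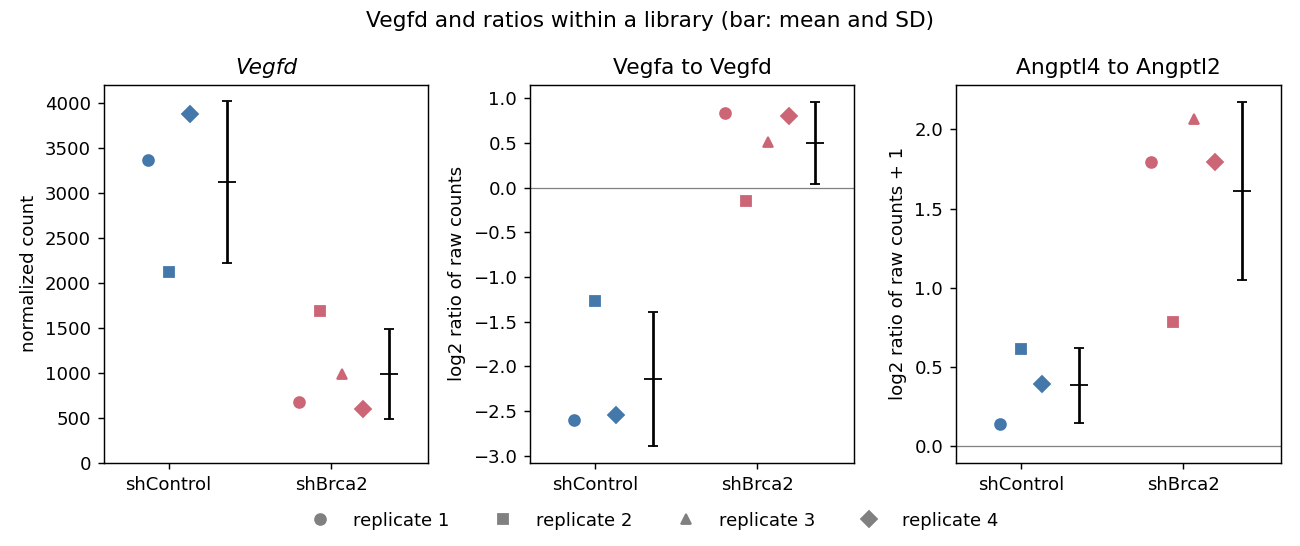
Normalized counts of Vegfd (left, linear axis from 0), the log2 ratio of Vegfa to Vegfd raw counts (middle) and the log2 ratio of Angptl4 to Angptl2 raw counts with 1 added (right) in each library; shapes give replicate numbers and black bars the group mean and SD. In each panel the 3 shControl libraries (blue) lie apart from the 4 shBrca2 libraries (red), with replicate 2 of both groups nearest to the other group.

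Among the other genes of this list, Angpt4, a further ligand of Tie2, had 226, 281 and 240 normalized counts among controls and 151, 145, 93.3 and 189 across shBrca2 replicates 1 to 4, without overlap. It fell by 0.77 on the log2 scale (SE 0.23, adjusted p by DESeq2 = 0.0193). Tek had 4 to 33 raw counts per library and did not pass (log2 fold change -1.55, adjusted p by DESeq2 = 0.117). The neuropilins, co-receptors that hold VEGF at the cell surface, did not pass, at log2 fold changes of -0.37 for Nrp1 and 0.27 for Nrp2 (adjusted p by DESeq2 = 0.606 and 0.738). Flt4, which encodes VEGFR3, lay between 5.98 and 31.1 normalized counts and did not pass (log2 fold change 0.55, adjusted p by DESeq2 = 0.615). Ptprb had 0, 1 and 0 raw counts in the controls and 12, 6, 5 and 9 across shBrca2 replicates 1 to 4. Its log2 fold change was 4.41 (adjusted p by DESeq2 = 0.0062), opposite in sign to that of Pecam1. Like Pecam1, it had a mean under 5 normalized counts and could not pass.

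Of 10 genes whose products handle these factors in the matrix, 3 passed downward and 0 upward, against 5.27% and 3.77% of all genes tested. Their median log2 fold change was -0.55. At an unadjusted p under 0.05 there were 5, and edgeR called 2 lower and 0 higher. Svep1, a large matrix protein needed for lymphatic vessels, fell from 2850 ± 608 normalized counts (SD, n = 3) to 747 ± 243 (SD, n = 4; log2 fold change -1.93, adjusted p by DESeq2 = 1.24e-10). Sulf2, a sulfatase that trims the heparan sulfate to which VEGF binds, fell from 972 ± 75.3 to 524 ± 148 (log2 fold change -0.89, adjusted p by DESeq2 = 0.00231). Adamts1, a protease that binds VEGF-A, was near the threshold (log2 fold change -0.58, adjusted p by DESeq2 = 0.0782). It did not pass without shControl replicate 1 or 4 or without shBrca2 replicate 1 or 4, nor by edgeR (adjusted p from 0.0195 to 0.432 over its alternatives).

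Of 13 inhibitors of vessel growth, 1 passed upward and 2 downward, against 3.77% and 5.27% of all genes tested. Their median log2 fold change was -0.44. Timp3, a metalloproteinase inhibitor that also blocks binding of VEGF-A to VEGFR2, rose in every shBrca2 library. It had 1621, 2225 and 1529 normalized counts among controls and 4537, 3490, 4427 and 3631 across shBrca2 replicates 1 to 4, a log2 fold change of 1.17 (SE 0.19, adjusted p by DESeq2 = 3.92e-07). Ism1, which encodes the secreted inhibitor isthmin, fell from 95.1 ± 26.1 to 32.0 ± 8.21 (log2 fold change -1.57, adjusted p by DESeq2 = 2.15e-05). Col4a2, a basement membrane collagen chain with an inhibitory fragment, fell by 0.70 on the log2 scale (adjusted p by DESeq2 = 0.0108).

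In the list of 22 genes of VEGF receptor signalling, which act in every cell, 1 passed upward and 2 downward. The shares over all genes tested were 3.77% and 5.27%, and the median log2 fold change of the list was -0.02. Map2k1, the kinase MEK1 of the ERK cascade, rose from 257 ± 22.7 to 406 ± 57.1 (log2 fold change 0.67, adjusted p by DESeq2 = 0.00542). It missed the threshold without shControl replicate 4 (adjusted p by DESeq2 = 0.105, the highest of its alternatives). Prkca and Pxn, a protein kinase C and the adhesion protein paxillin, were near the threshold, at log2 fold changes of -0.68 and -0.50 (adjusted p by DESeq2 = 0.0912 and 0.0902). Prkca passed in 0 of 7 fits that left out a library, and Pxn passed in 2 of 7.

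Vegfa and Angptl4 are targets of hypoxia-inducible factors (HIFs), and 20 other HIF targets were set beside them. Of these 8 passed upward and 1 downward, with a median log2 fold change of 0.55, against 3.77% and 5.27% of all genes. Their summed normalized counts were 9609 to 13574 in shControl and 14059 to 18794 in shBrca2. Car9, Egln3, Bnip3 and Hilpda rose most, by log2 fold changes of 3.18, 2.67, 1.67 and 1.62, and Adm, the vasodilator peptide adrenomedullin, fell by 1.30 on the log2 scale (adjusted p by DESeq2 = 0.00045). Of 10 HIF subunits and oxygen sensors 1 passed upward, Egln3, and 1 downward. The latter was Epas1, which encodes HIF-2α and fell from 545 ± 104 to 218 ± 75.2 (log2 fold change -1.33, adjusted p by DESeq2 = 6.99e-05), while Hif1a did not pass (0.12, adjusted p by DESeq2 = 0.91). Of 11 targets of PPAR receptors, which also induce Angptl4, 1 passed upward and 0 downward by DESeq2 and by edgeR, 2 had an unadjusted p under 0.05, and the median was -0.10. That gene was Ucp2, a mitochondrial carrier (log2 fold change 1.78, adjusted p by DESeq2 = 4.04e-06). The part of HIFs and of PPAR receptors in the values of the members was not tested.

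Markers of other cells that make these factors were also compared between the groups. Beside the counts below, 3.77% of all genes tested passed upward and 5.27% downward. The epithelial list had 5 of 12 genes in the table, of which 3 passed upward, with summed normalized counts of 123 to 516 in shControl and 468 to 731 in shBrca2, nearly all of it Krt19. Cdh1 lay at 1 to 17 raw counts, and Epcam was not analysed here. For 11 macrophage genes, 3 passed upward and the sums were 344 to 411 against 585 to 627, with Ptprc and Adgre1 not analysed here. Csf1r and Cd14 carried most of this rise, from means of 113 to 248 and of 74.1 to 171 normalized counts. Cd68, Lyz2 and Fcer1g had log2 fold changes of -0.32, -0.26 and -0.11, and the rest of the list lay above 0. For 9 pericyte genes, 4 passed upward and the sums were 876 to 1804 against 1843 to 2382. Des and Ndufa4l2 carried most of this rise, from means of 526 to 950 and of 287 to 732 normalized counts. None of the defining markers Rgs5, Kcnj8, Abcc9 and Cspg4 passed. Their log2 fold changes were 0.59, -0.13, -0.32 and 0.25 (adjusted p by DESeq2 = 0.84, 0.84, 0.733 and 0.858), with Rgs5 at 1 to 8 raw counts. Of 9 mesothelial genes 0 passed by DESeq2 or edgeR and 2 had an unadjusted p under 0.05, with sums of 1243 to 3471 against 2115 to 2718. No gene of these lists could be at 0 in every library, since each gene in the table reached at least 6 counts in some library. The part of these cells in the rise of Vegfa, Pgf and Flt1 was not tested.

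Lastly, the genes whose profile over the 7 libraries was nearest to each member that moved were listed, among 11632 genes with a mean normalized count over 5. Nearness is the root mean square difference of log2(normalized count + 1) centred per gene, and it is a description. Vegfa was nearest to Amz1 (0.135), Tmem51 (0.153) and Brca1 (0.169). Pgf was nearest to D630010B17Rik (0.241), Ptpn5 (0.247) and Mpp2 (0.27). Angptl2 was nearest to Pdxk (0.079), Ccnyl1 (0.0835) and Aldh1l1 (0.0921), and Flt1 to Cyp26a1 (0.18), Wasf1 (0.23) and Arhgap19 (0.234). Of these neighbours, Amz1, Brca1, Wasf1 and Arhgap19 did not pass (adjusted p by DESeq2 = 0.357, 0.355, 0.113 and 0.48), and the others did. Replicate 2 of shControl was the control nearest to the shBrca2 mean for 5 of 11 genes, the 9 members with Vegfd and Angpt4, and for 53.4% of the 1154 genes that passed. Replicate 2 of shBrca2 was nearest to the control mean for 6 of the 11 and for 49.1% of the 1154.

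**Figure D4:**
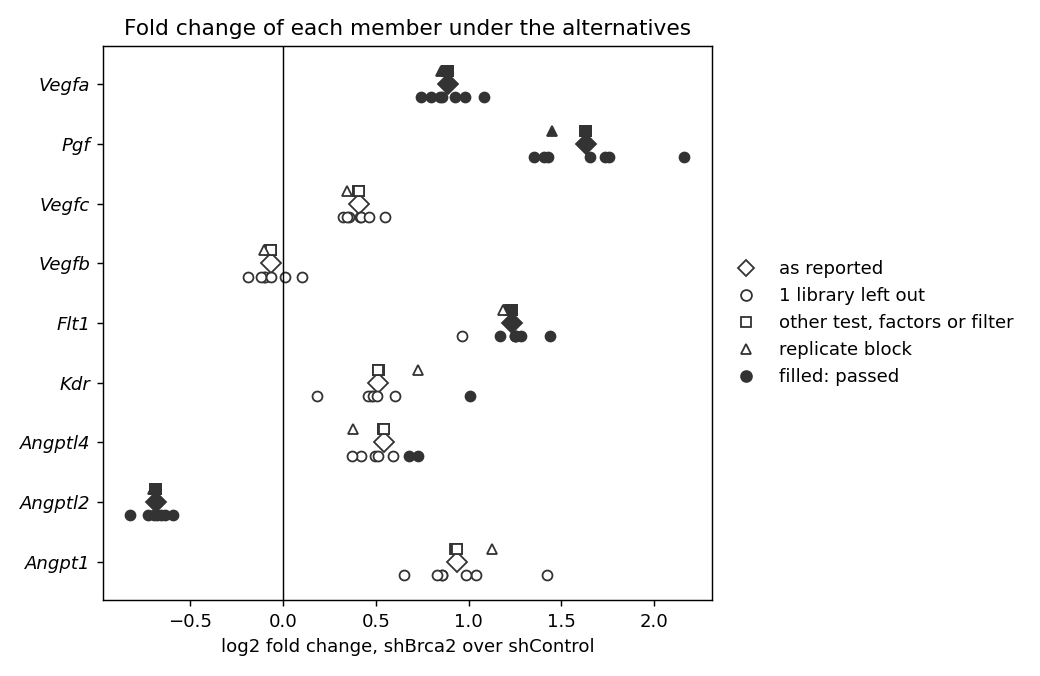
Log2 fold change of each member (x axis) as reported (diamonds), with 1 library left out (circles), with another test, other factors or another filter (squares) and with a replicate block (triangles); filled symbols passed the test. Vegfa, Pgf and Angptl2 passed in every fit shown, and Flt1 missed without shBrca2 replicate 1 and with the block.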

How the data were processed

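Poly(A) RNA of sorted CAFs was sequenced with a variant of MARS-seq. The authors deposited 1 table of raw counts per gene symbol for 7 libraries, whole numbers that were not normalized. The submitters' processing notes name bcl2fastq, cutadapt, STAR 2.4.2a, HTSeq and DESeq2 and the build mm10. How strand and molecular barcodes were handled was not given in the sources used here, so counts may include PCR copies. Each gene in the table reached at least 6 counts in some library.

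Groups were taken from the recorded silencing status, and each library was 1 mouse per the study's methods. All genes were fitted in DESeq2 1.42.0 (R 4.3.3) by the likelihood ratio test of group after median-of-ratios scaling, with the study's thresholds. No p was given for 3 genes. Fold changes are shBrca2 over shControl and not shrunken, and 95% intervals are Wald intervals. Ratios within a library used a pseudocount of 1 where stated. Gene positions came by symbol from RefSeq GRCm38.p6, the build of mm10, and all 9 members matched; 7 of the 10 member names had a promoter entry. Alternatives were edgeR 4.0.16 with TMM, the Wald test, TMM factors, other filters, an adjusted p under 0.05, a replicate block and leaving out each library. The code was tested on simulated data.

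Members and lists were chosen with earlier results of these data known. All members are named, with at most 4 passing genes in each direction per pathway list. From each list of cell type markers the first 4 genes were taken as defining markers. Of those in the count table, values of Col1a1, Col1a2, C1qa, Cldn7, Msln, Upk3b, Upk1b and Lrrn4 are not given. The 3 nearest profiles were named for each member that passed. Ptprb, Tek, Nrp1, Nrp2, Flt4, Hif1a, Eng, Esam, Egfl7, Erg, Sox18, Dpt, Lum, Dcn and the ratios to Vegfd and Kdr were added after their values were seen. So were Plvap, Vwf, Ecscr, Cd14, Cd68, Lyz2, Fcer1g, Des, Ndufa4l2 and Col3a1.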

Additional observations from a re-analysis of the deposited data

Results flagged for a closer look

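Of 35 values checked in the 4 shBrca2 libraries, 1 had a library far from the others, where chance isolates about 1 in 20. The summed normalized count of the 12 fibroblast markers was 140629 in shBrca2 replicate 2 and 116350 to 118185 in the other 3. The gap was 0.924 of the range, above Dixon's 95% critical value for 4 samples.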

How the results depend on the processing

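Vegfa, Pgf and Angptl2 kept their direction and passed in all 13 alternative fits, with log2 fold changes of 0.75 to 1.08, 1.35 to 2.16 and -0.82 to -0.59. Vegfc and Angpt1 passed in none of theirs. When single libraries were left out, the log2 fold change ran from 0.96 to 1.44 for Flt1, 0.37 to 0.73 for Angptl4, 0.18 to 1.01 for Kdr, 0.65 to 1.42 for Angpt1 and -0.19 to 0.10 for Vegfb, whose sign turned to 0.10 when shControl replicate 4 was dropped and to 0.01 when shBrca2 replicate 1 was. In the same fits 261 to 610 genes were called higher and 354 to 695 lower, against 481 and 673 with all libraries. Dropping shControl replicate 1 left 264 and 366, and dropping shControl replicate 4 left 386 and 418. Dropping shBrca2 replicate 1 left 261 and 354, and dropping shBrca2 replicate 4 left 290 and 372, with fewer samples in each of these fits. The difference of the Angptl4 to Angptl2 ratio was 1.08 to 1.5 over its 10 alternatives. The Angpt2 to Angpt1 ratio was not run, as Angpt2 was not analysed here.

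Replicate numbers did not pair the libraries: deviations from the group means of same-numbered libraries had correlations of -0.066, -0.098 and -0.095 for numbers 1, 2 and 4 across 11632 genes, which are not independent replicates. With a replicate block 211 genes were called higher and 280 lower, Flt1 had a log2 fold change of 1.19 (adjusted p by DESeq2 = 0.143) and Vegfd one of -1.81 (0.18), and neither passed. Angpt4, Adamts1, Col4a2, Map2k1, Prkca and Pxn also missed the threshold. With the block the fit has fewer degrees of freedom. No other call on a member changed with the block. Low counts limit Angpt1, Flt1, Tek, Pecam1 and Ptprb.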
